A study of Mus musculus with 6 samples.

Results

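Peroxisomes are small organelles that shorten fatty acids too long or too branched for mitochondria, make the first intermediates of ether lipids such as plasmalogens, and remove the hydrogen peroxide that their oxidases release. Their matrix enzymes are made in the cytosol and imported by peroxins, the products of the Pex genes, while ABC transporters of the D subfamily carry acyl-CoA substrates across the membrane. The genes described here are 29 such genes, taken because 1 of them, Abcd3, was among the largest rises in Nup98::Nsd1 cells; the other 28 were added for their function. Every probe set annotated to 1 of these symbols alone was used, which gave 59 of the array's 45037 probe sets other than controls and covered 28 of the 29 genes. Prdx5, a peroxiredoxin of several compartments, had no such probe set and was not analysed here.

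RNA was measured in 32D cells, a mouse line of myeloid progenitors that needs interleukin-3, derived from bone marrow of the C3H/HeJ strain after infection with Friend leukemia virus. The 3 mock samples had been transduced with the retroviral vector MSCVpuro and the 3 Nup98::Nsd1 samples with the leukaemia fusion gene Nup98::Nsd1; the labels give no time, clone or culture for a sample, so the p-values cover just the variation among these 6 samples, which may be technical. One Affymetrix Mouse Genome 430 2.0 array was used per sample. For each probe set the authors deposited a MAS5 signal, which is a scaled linear intensity, with a call of Present, Marginal or Absent. All fold changes are Nup98::Nsd1 over mock unless "lower" is written.

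Each marker was read at its brightest probe set alone. Of 12 myeloid progenitor markers, 9 were Present on all 6 arrays, while Kit and Cd34 were Present on none. The summed signal of these markers was 64603 to 68577 on the mock arrays and 40792 to 41951 on the Nup98::Nsd1 arrays, although members went both ways as deposited: 5 fell (Mpo from 19095 to 5183, Ms4a3 from 12826 to 2502, with Prtn3, Elane and Csf2rb2) and 4 rose (Ptprc, Spi1, Cebpa and Csf2rb). The summed signal of 7 measured monocyte and macrophage markers was 5098 to 5364 on the mock and 7297 to 7484 on the Nup98::Nsd1 arrays. These markers went both ways too: 3 rose (Fcgr1 from 1222 to 2938, with Csf1r and Adgre1) and Cd68 fell from 1036 to 842. Cd14 and Marco were Present on no array. None of 5 T cell markers was Present on any array and none of 5 fibroblast markers on all 6. Of 4 markers each, B cells had Cd79b, erythroid cells Epor and hepatocytes Cyp7a1 Present on all 6 arrays; Klf1, an erythroid factor, fell by 0.95 and Cyp7a1 rose by 0.77 on the log2 scale, while Cd79a, Hba-a1, Alas2, Alb, Apoa1 and Ttr were Present on none. RNA quality was read from the beta-actin controls, whose 3'-end signal divided by the 5'-end signal was 1.18 ± 0.0304 in mock and 1.47 ± 0.0263 in Nup98::Nsd1 samples (mean ± SD, n = 3 each). The marker levels and this ratio moved with the groups, and their part in the results below was not tested. In bulk RNA, fewer cells of a type and less RNA per cell cannot be told apart. The number of arrays limits the precision.

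Probe sets were tested with limma where at least 1 group had them Present on all 3 of its arrays. Of 20494 tested, 69.9% passed an adjusted p of 0.05, 42.3% higher and 27.6% lower, and the median log2 fold change of all tested probe sets was 0.15. Of the 59 peroxisomal probe sets 47 were tested, 43 of them Present on all 6 arrays; the other 12 were Present on none. A gene was represented by its brightest tested probe set, and 25 of the 29 genes had one. The untested genes were Abcd2, a transporter of very long chain acyl-CoA, Ehhadh, the L-bifunctional enzyme of beta-oxidation, Phyh, which starts alpha-oxidation of phytanic acid, and Prdx5.

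Because the promoter of Abcd3 belongs to the gene that changed most among the 29, and Agps and Gnpat catalyse successive steps that fell together, the 250 bases before their annotated starts are shown, 5′ to 3′ on each gene's own strand (RefSeq, GRCm38.p6). The Abcd3 window is chr3:121815303-121815552 on the minus strand, that of Agps chr2:75831927-75832176 and that of Gnpat chr8:124862783-124863032, both on the plus strand. Capitals mark matches, on either strand, to any of the motifs searched: the GC box GGGCGG, the box CCAAT, the ETS core CCGGAA, the E-box CACGTG, the cyclic AMP element TGACGTCA, the nuclear receptor half-site AGGTCA, the antioxidant element TGACNNNGC and the box TATAAA.
Abcd3: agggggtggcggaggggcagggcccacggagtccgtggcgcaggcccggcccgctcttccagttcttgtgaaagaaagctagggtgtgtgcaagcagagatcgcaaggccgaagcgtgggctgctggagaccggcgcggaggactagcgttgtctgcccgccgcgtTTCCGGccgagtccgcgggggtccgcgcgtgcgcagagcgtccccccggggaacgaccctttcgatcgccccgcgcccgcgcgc
Agps: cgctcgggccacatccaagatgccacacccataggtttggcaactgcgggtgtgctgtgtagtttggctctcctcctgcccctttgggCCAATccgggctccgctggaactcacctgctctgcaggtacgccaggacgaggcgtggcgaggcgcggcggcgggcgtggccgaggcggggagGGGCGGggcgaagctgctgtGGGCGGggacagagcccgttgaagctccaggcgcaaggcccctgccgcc
Gnpat: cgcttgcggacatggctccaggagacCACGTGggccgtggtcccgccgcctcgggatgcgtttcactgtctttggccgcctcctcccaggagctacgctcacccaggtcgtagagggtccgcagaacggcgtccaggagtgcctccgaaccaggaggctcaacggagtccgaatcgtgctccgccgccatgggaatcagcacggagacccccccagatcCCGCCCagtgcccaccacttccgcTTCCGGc

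The Abcd3 window held 1 match, to CCGGAA, the core bound by ETS factors, on the opposite strand and beginning 84 bases before the start. Gnpat held the same motif 7 bases before its start, a GGGCGG box and the E-box CACGTG, and Agps held 2 GGGCGG boxes and 1 CCAAT box. Of 32841 mouse windows of this length, 12.03% held CCGGAA, 32.7% GGGCGG, 33.9% CCAAT and 6.02% CACGTG. Among 17 of the genes whose window began at the outer end of the gene, 7 held CCGGAA and 12 held GGGCGG, and their median GC content was 61.2% against 52.4% for all windows. AGGTCA, a half-site of nuclear receptors that include the PPARs, was in 1 of these 17 windows and in 14.0% of all. The 32841 windows were not limited to outer ends or to 1 per gene, as the 17 were. The sets are thus unlike, and nothing is read from the differences between their shares. A match is a description of letters and not of a bound site.

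Among the ABC transporters, Abcd3 stood far apart from its relatives. Abcd3 encodes PMP70, a major peroxisomal membrane protein that imports branched and dicarboxylic acyl-CoA and bile acid intermediates, and it lies at chr3:121758904-121815302 (GRCm38.p6). Its brighter probe set read 24.1, 23.0 and 26.2 on the mock arrays, where it was called Present once and Absent on the others, and 1329, 1346 and 1259 on the Nup98::Nsd1 arrays, where it was always Present. Every Nup98::Nsd1 array was thus more than an order of magnitude above every mock array. The ratio was 53.7-fold, from 24.4 ± 1.62 to 1311 ± 46.0, but with 2 of 3 mock arrays not above background the size of the rise is not well fixed. These are the values for which the genes were chosen, so they are a description without a test. Since the mock signal lay near the bottom of the scale, the log2 fold change of 5.75 became 5.04 when 16 was added to each signal and 3.96 when 64 was added; with other scalings of the arrays it stood between 5.35 and 5.58. The second Abcd3 probe set was Absent on all 6 arrays, at 1.4 to 10.8 in mock and 2.3 to 19.0 in Nup98::Nsd1 cells, so the rise was seen at 1 probe set of 2.

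**Figure D1:**
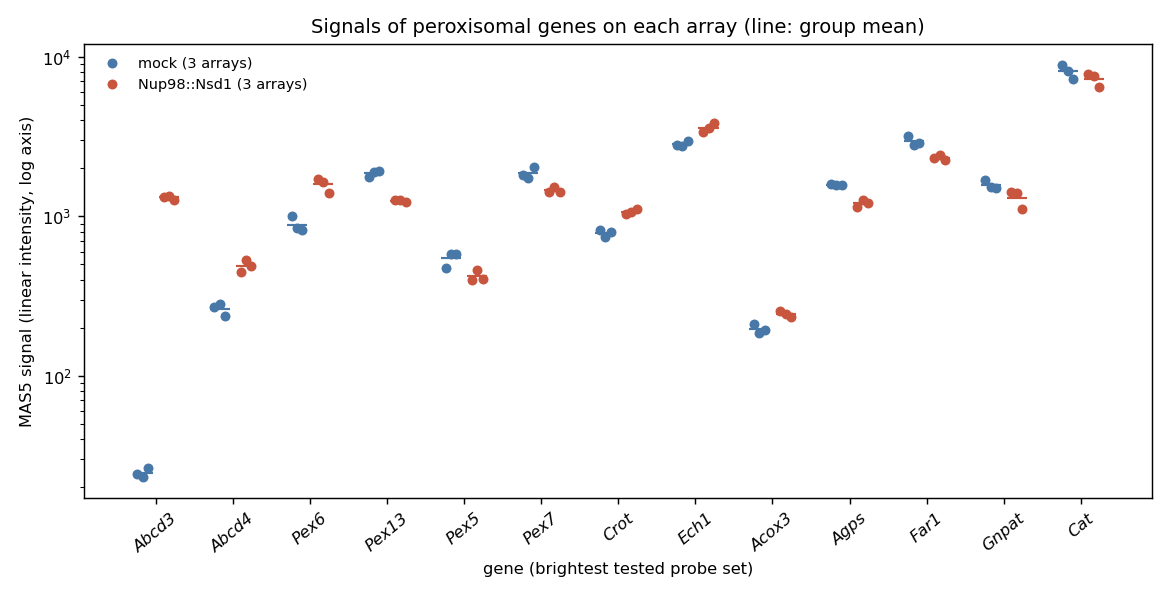
MAS5 signals (log axis) on the 3 mock and 3 Nup98::Nsd1 arrays for 13 peroxisomal genes at the brightest tested probe set of each; points are arrays and short lines group means. Abcd3 went from 24.4 to 1311, whereas the other genes shown differed by less than 2-fold between group means.

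Abcd4, whose product works with lysosomal cobalamin export and not in the peroxisome membrane proper, also rose. Its brighter probe set read 268, 283 and 238 on the mock arrays and 446, 535 and 488 on the Nup98::Nsd1 arrays, each call Present. The groups did not overlap, and the level was 1.86-fold higher (log2 fold change 0.90, SE 0.11, limma adjusted p = 1.72e-05). The call held under each of the 17 alternative settings, with log2 fold changes of 0.50 to 0.96. A second probe set was Absent on all 6 arrays. All 4 probe sets of Abcd2 were Absent on all 6 arrays, so its change was not tested.

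The 28 genes besides Abcd3 showed no common shift of that kind. Of the 24 tested, 6 rose (Abcd4, Pex6, Crot, Ech1, Acox3 and Pex16), 10 fell (Pex13, Agps, Pex5, Pex7, Pex2, Far1, Gnpat, Pex26, Hsd17b4 and Pex3) and 8 did not pass, so that 66.7% passed against 72.3% of all 9641 tested genes, of which 42.9% rose and 29.5% fell; with quantile normalization the counts were 4 and 10, with 75th percentile or median centring 4 and 12, and with hybridization control scaling 2 and 16. No gene besides Abcd3 changed 2-fold or more at its brightest probe set, while 9.53% of tested genes rose and 2.60% fell by that much. Their median log2 fold change was -0.05, against 0.12 for all tested genes. By probe set, 27 of 46 passed, 9 higher and 18 lower (8 and 18 among those Present on all 6 arrays), and 28 of 46 had groups that did not overlap, against 73.2% of all tested probe sets. The genes were chosen with results of this same comparison known, so nothing is read from these counts beside the background.

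**Figure D2:**
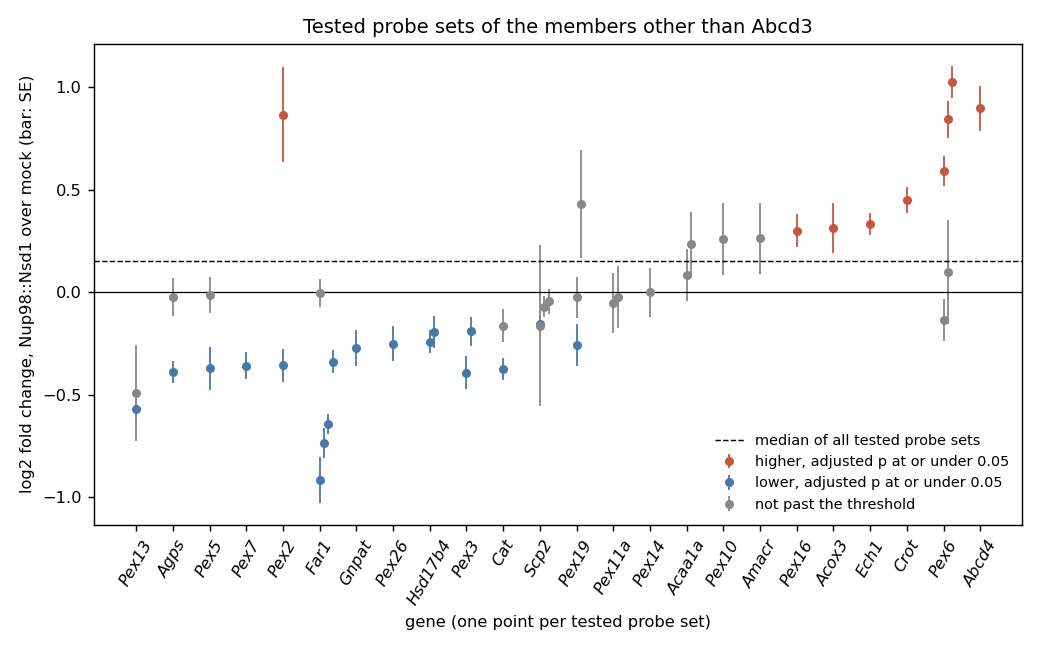
Log2 fold change with its SE for the 46 tested probe sets of the 24 genes other than Abcd3, ordered by the value of each gene's brightest probe set; red is higher, blue lower and grey not past the threshold, and the dashed line is the median of all tested probe sets, 0.15. Probe sets of Pex2 were called in opposite directions, and those of Far1 ran from -0.91 to -0.0033.

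Of the 12 peroxins, all tested, 2 rose, 6 fell and 4 did not pass as deposited. Among all tested genes 42.9% rose and 29.5% fell, and nothing is read from the difference. Pex5 and Pex7 are the cytosolic receptors for the 2 peroxisomal targeting signals, and Pex13 is part of the membrane docking site where they arrive. Pex13 read 1758, 1887 and 1928 on the mock arrays and 1259, 1263 and 1227 on the Nup98::Nsd1 arrays. The groups lay clear of each other, and Pex13 was 1.49-fold lower (log2 fold change -0.57, SE 0.053, limma adjusted p = 1.86e-06). Its dimmer probe set, at -0.49, did not pass (limma adjusted p = 0.0792), though it fell under each of the 4 other scalings.

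Pex7 signals were 1806, 1738 and 2042 in mock cells and 1415, 1522 and 1413 in Nup98::Nsd1 cells. All 3 mock arrays were the higher, and the fall was 1.28-fold (log2 fold change -0.36, SE 0.065, limma adjusted p = 0.000439). Pex5 read 476, 581 and 579 in mock and 395, 463 and 405 in Nup98::Nsd1 cells at its brighter probe set, where the groups were close but separate (log2 fold change -0.37, limma adjusted p = 0.00745). The second Pex5 probe set went from 439 ± 18.0 to 435 ± 25.2 and did not pass (log2 fold change -0.01, limma adjusted p = 0.889), so the fall rests on 1 probe set of 2. Pex14, the partner of Pex13 in docking, went from 469 ± 41.7 to 471 ± 76.0, with overlapping groups (log2 fold change -0.0003, limma adjusted p = 0.999).

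The peroxins that recycle the receptors divided. Pex2 and Pex10 are RING ubiquitin ligases that mark the receptors, and Pex6 is an ATPase, anchored to the membrane by Pex26, that pulls them out. Pex6 read 999, 841 and 814 on the mock arrays and 1723, 1629.5 and 1401 on the Nup98::Nsd1 arrays at its brightest probe set. Groups were well apart, and the rise was 1.79-fold (log2 fold change 0.84, SE 0.092, limma adjusted p = 7.04e-06), a call that held under every alternative tried. Of the other 4 Pex6 probe sets, 1 that was Present on all 6 arrays also rose, by 1.02 on the log2 scale. Another stood at 0.59, but it was Absent on each mock array at signals of 474 to 533 and passed the filter only through the group where it was high, so it adds no support. The remaining 2, at -0.13 and 0.10, did not pass, and the first of them was called lower under each of the 4 other scalings, so the probe sets of Pex6 disagree. By Affymetrix naming, the endings _s_at and _x_at mark probes that can match other transcripts. The brightest Pex6 probe set ends in _x_at and the one at 1.02 in _s_at, while the rest end in neither.

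Pex26 went the other way from Pex6, from 452 ± 12.5 to 380.1 ± 16.3, with all mock arrays above all Nup98::Nsd1 arrays (log2 fold change -0.25, limma adjusted p = 0.021); the call was lost without mock replicate 3 (limma adjusted p = 0.0643) or without Nup98::Nsd1 replicate 3 (limma adjusted p = 0.0613). For Pex2 the brighter probe set fell, from 490.4 ± 7.69 to 383 ± 10.2 (log2 fold change -0.36, limma adjusted p = 0.00205). The dimmer Pex2 probe set rose, from 69.2 ± 14.0 to 125 ± 22.3 (log2 fold change 0.86, limma adjusted p = 0.00562), which ended with quantile normalization at 0.45 and with hybridization control scaling at 0.47. Pex2 was the only one of these genes with calls in both directions as deposited. Pex10 read 304, 195 and 276 in mock and 252, 346 and 323 in Nup98::Nsd1 cells, with overlap, and did not pass (log2 fold change 0.26, limma adjusted p = 0.202).

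Pex3, Pex16 and Pex19 insert proteins into the peroxisome membrane, Pex19 as the soluble carrier and Pex3 as its receptor. Pex3 fell at both probe sets, by 0.19 at the brighter (987 ± 39.8 to 866 ± 65.4, limma adjusted p = 0.0303) and by 0.39 at the other (725 ± 61.3 to 552 ± 8.74, limma adjusted p = 0.000929), on the log2 scale. The call of the brighter was lost without mock replicate 2 or 3 or Nup98::Nsd1 replicate 2, with adjusted p-values up to 0.118. Pex16 rose from 600.0 ± 15.98 to 740.0 ± 70.6 as deposited (log2 fold change 0.30, limma adjusted p = 0.00588), but the other 4 scalings gave 0.15, 0.10, 0.13 and, with hybridization controls, -0.10, none past the threshold. Pex19 did not pass at its brightest probe set (500.9 ± 42.5 to 493 ± 56.0, log2 fold change -0.03, limma adjusted p = 0.835). Of its other probe sets, 1 fell by 0.26 on the log2 scale (limma adjusted p = 0.0414), a call lost in 5 of the 6 fits that leave out 1 array, and 1 stood at 0.43 and did not pass. Pex11a, which elongates and divides peroxisomes, stood at -0.02 and -0.05 at its probe sets (257 ± 3.33 to 257 ± 55.4 at the brighter), neither past the threshold.

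Of the 7 tested enzymes that shorten and export acyl chains, 3 rose, 1 fell and 3 did not pass as deposited. The shares of all tested genes were 42.9% higher and 29.5% lower, and nothing is read from this count. Crot, the carnitine octanoyltransferase that readies shortened chains for export to mitochondria, read 814, 742 and 792 in mock and 1031, 1064 and 1113 in Nup98::Nsd1 cells. Those groups did not overlap, and the rise was 1.37-fold (log2 fold change 0.45, SE 0.064, limma adjusted p = 6e-05). With hybridization control scaling it was 0.05 and no longer passed. Ech1, a dienoyl-CoA isomerase of peroxisomes and mitochondria, read 2810.3, 2773 and 2967 against 3381, 3557 and 3842, again without overlap (log2 fold change 0.33, limma adjusted p = 0.000171; -0.07 and not past the threshold with hybridization control scaling).

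Acox3, the oxidase of branched acyl-CoA, had signals of 210.3, 184 and 194 in mock and 255, 242 and 233 in Nup98::Nsd1 cells at its Present probe set. Separate as they were, these gave a log2 fold change of 0.31 with a limma adjusted p of 0.0383, and the call was lost under each other scaling, with values from -0.09 to 0.14, and without mock replicate 2 or 3 or Nup98::Nsd1 replicate 1 or 2. Hsd17b4, the D-bifunctional enzyme that carries out the middle steps of the pathway, read 2016.4, 1715 and 1586 in mock and 1527, 1599 and 1499 in Nup98::Nsd1 cells at its brighter probe set. Here the groups overlapped, and the fall of 0.19 on the log2 scale (limma adjusted p = 0.0428) was lost in 4 of the 6 fits without 1 array. The other Hsd17b4 probe set fell from 1369.8 ± 43.6 to 1159 ± 48.0 (log2 fold change -0.24, limma adjusted p = 0.00229). The brighter one ends in _x_at and this one does not.

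Acaa1a, the thiolase that ends each cycle, did not pass at either probe set (log2 fold changes 0.08 and 0.23); both carry the ending _x_at, and the gene has a near-identical copy, Acaa1b. Scp2, a thiolase and sterol carrier, did not pass at its brightest probe set (3258 ± 208 to 3099.8 ± 47.4, log2 fold change -0.07, limma adjusted p = 0.242; called lower with both centrings and hybridization control scaling), and 1 of its other 3 probe sets fell by 0.15 on the log2 scale. The brightest Scp2 probe set ends in _s_at. Amacr, the racemase that prepares branched chains, read 185, 142 and 141 against 224, 166 and 171, with overlap, and did not pass (log2 fold change 0.26, limma adjusted p = 0.198). Ehhadh was Absent on all 6 arrays, and Phyh was Marginal on 1 mock array and Absent on the rest.

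The 3 genes of ether lipid synthesis fell, where 29.5% of all tested genes fell as deposited. They fell under each of the 4 other scalings too, but each of those lowered the median of all tested genes. Gnpat lost its call without either of 2 single arrays. Gnpat and Agps catalyse the first steps inside the peroxisome, and Far1 supplies the fatty alcohol from the membrane. Agps read 1588, 1572 and 1579.6 on the mock arrays and 1149, 1269 and 1203 on the Nup98::Nsd1 arrays. That is a clear separation, and Agps was 1.31-fold lower (log2 fold change -0.39, SE 0.054, limma adjusted p = 5.3e-05). Its second tested probe set, dimmer, went from 433 ± 34.9 to 426 ± 22.5 and did not pass.

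Far1 read 3199, 2789 and 2868 in mock and 2331, 2416 and 2251 in Nup98::Nsd1 cells at its brightest probe set. No array of one group reached the range of the other, and the level was 1.26-fold lower (log2 fold change -0.34, SE 0.057, limma adjusted p = 0.000245). Of the other 4 Far1 probe sets, 3 fell more, by 0.64, 0.74 and 0.91 on the log2 scale, while the last went from 863 ± 51.3 to 861 ± 45.2 (log2 fold change -0.0033, limma adjusted p = 0.969; called lower in 3 of the 4 other scalings). This last Far1 probe set ends in _s_at, and the others do not. Gnpat signals were 1686, 1522 and 1492 in mock and 1412, 1393 and 1106 in Nup98::Nsd1 cells. They were separate by a narrow margin, and Nup98::Nsd1 replicate 3 was the lowest. The fall was 1.21-fold (log2 fold change -0.27, SE 0.089, limma adjusted p = 0.0174), and without that array it was 0.16 on the log2 scale and no longer passed (limma adjusted p = 0.0544); the call was also lost without mock replicate 1 (limma adjusted p = 0.0661).

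Catalase, encoded by Cat, breaks down hydrogen peroxide in the peroxisome matrix. Its brighter probe set read 8932, 8190.2 and 7245 in mock and 7785, 7529.9 and 6449.5 in Nup98::Nsd1 cells. The groups overlapped, and the difference did not pass (log2 fold change -0.16, limma adjusted p = 0.0922), though it passed with hybridization control scaling (-0.56), 75th percentile centring (-0.36) and median centring (-0.33), and without mock replicate 3 (-0.24). The other Cat probe set, at 5946, 5995 and 6137 against 5052, 4426 and 4497, fell without overlap (log2 fold change -0.37, SE 0.052, limma adjusted p = 5.31e-05).

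The scaling of the arrays decides how many of these genes count as higher. The authors' scaling put the median tested gene at 0.12, and hybridization control scaling put it at -0.28. At the brightest probe sets, 2 of the 6 genes that rose (Abcd4 and Pex6) kept their call under each of the 4 other scalings. A dimmer Pex6 probe set, at -0.13 as deposited, was called lower under each of these 4. All 10 of the genes that fell kept their call. But all 4 scalings lowered the median of all tested genes: quantile to 0.01, 75th percentile to -0.08 and median centring to -0.05. A shift that way tends to make falls larger and rises smaller. A fall kept or gained under these scalings is therefore no added support. Over all 17 alternatives, 6 of the 10 falls kept their call, those of Pex13, Agps, Pex5, Pex7, Pex2 and Far1.

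**Figure D3:**
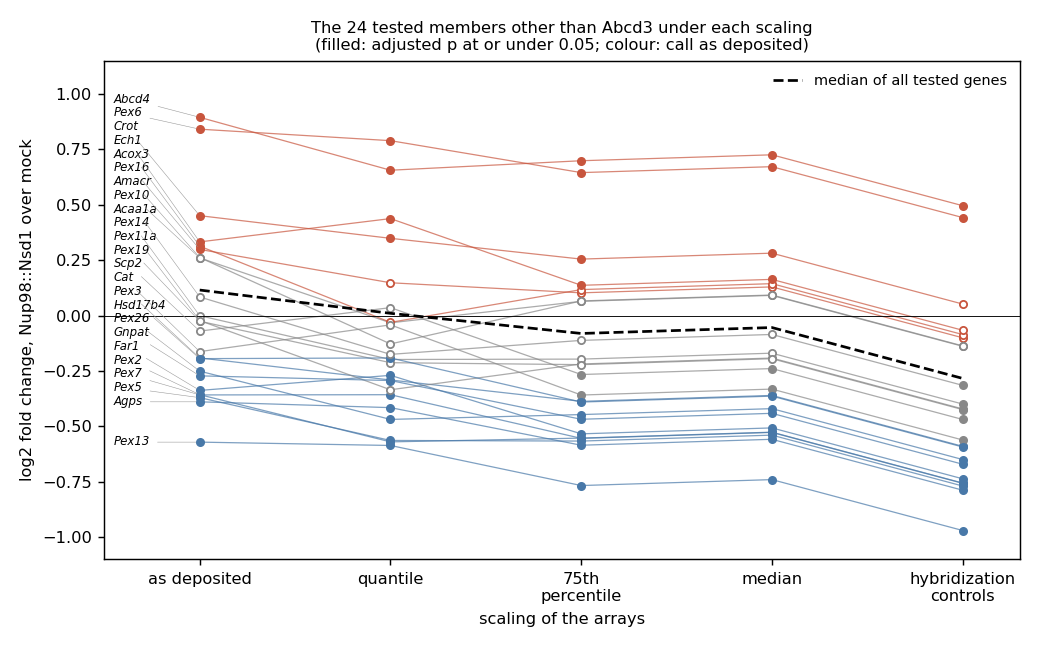
Log2 fold changes of the 24 genes other than Abcd3 under the authors' scaling and 4 others; filled points passed the threshold, colours give the call as deposited and the dashed line is the median of all tested genes. Each gene is shown at its brightest tested probe set. All 10 genes called lower stayed lower, and with hybridization control scaling only Abcd4 and Pex6 were still called higher. All 4 other scalings lower the median, which tends to enlarge falls.

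Further genes of the same functions were taken from lists chosen by function. Of 59 other peroxisomal genes 30 were tested, of which 14 rose and 9 fell (9 and 14 with 75th percentile centring, 10 and 14 with median centring and 5 and 16 with hybridization control scaling); their median log2 fold change was 0.15. The share that passed, 76.7%, was near the 72.3% of all tested genes. Among them, the membrane protein gene Pxmp4 rose from 339.6 ± 5.96 to 587 ± 27.4 (log2 fold change 0.79, limma adjusted p = 5.02e-06) and Uox, urate oxidase, from 138 ± 5.10 to 230.1 ± 9.05 (0.74, adjusted p = 0.000369). Nudt19, which hydrolyses coenzyme A, fell from 1923 ± 255 to 1043 ± 36.9 (log2 fold change -0.87, limma adjusted p = 2.91e-06). Acot6, an acyl-CoA thioesterase, fell by 0.77 on the log2 scale (limma adjusted p = 0.0156; adjusted p = 0.0538 without mock replicate 2).

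Mitochondrial beta-oxidation, which takes over the shortened chains, was split evenly as deposited. Of 19 tested genes 8 rose and 8 fell, against 42.9% and 29.5% of all tested genes (7 and 5 with quantile normalization, 3 and 8 with either centring, and 2 and 13 with hybridization control scaling), with a median log2 fold change of 0.13. Etfa, an electron carrier subunit that receives electrons from the acyl-CoA dehydrogenases, was 1.65-fold lower (5382 ± 179.8 to 3260.2 ± 206, limma adjusted p = 2.04e-07). Acad10 and Eci1, a dehydrogenase-like protein and an enoyl-CoA isomerase, had log2 fold changes of 0.72 and 0.71 and both rose, and Acad9 rose by 0.46, or 0.06 and no longer past the threshold with hybridization control scaling.

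A further list, of antioxidant genes, held 15 tested genes, of which 10 fell and 3 rose. Among all tested genes 29.5% fell and 42.9% rose. Over the alternatives tried, 10 to 14 genes of the list fell. Not all genes of the list remove peroxide. As deposited, Sod1 (1.14-fold higher) and Sod2 (1.19-fold lower) encode superoxide dismutases, which form hydrogen peroxide, and Hmox1 (1.33-fold lower) encodes a heme oxygenase. Gsr, glutathione reductase, fell from 6349 ± 168 to 1781 ± 105 (log2 fold change -1.84, SE 0.051, limma adjusted p = 1.91e-10). Gclm, a subunit of the enzyme that limits glutathione synthesis, fell from 7353 ± 287 to 2263 ± 59.98 (log2 fold change -1.70, limma adjusted p = 1.26e-10). In both, every Nup98::Nsd1 array lay below every mock array. Txnrd1, thioredoxin reductase, was 1.82-fold lower (limma adjusted p = 1.47e-07), whereas Gpx4, which reduces lipid peroxides, rose 1.92-fold, from 6761 ± 108 to 12949.5 ± 13.4 (limma adjusted p = 1.84e-09).

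PPAR nuclear receptors and their coactivators are known in rodent liver to induce peroxisomal genes. Of 9 tested genes 7 rose and 1 fell, against 42.9% and 29.5% of all tested genes (4 and 2 genes with hybridization control scaling), with a median log2 fold change of 0.41. The list also held Nfe2l2, which encodes neither a PPAR or its partner nor a coactivator of them. It is 1 of the 7 rises, and its log2 fold change is the median value of 0.41. Each at its brightest probe set, Ppara, Pparg, Rxrg and Ppargc1a were Absent on all 6 arrays. Rxra was Present on 2 mock arrays alone, and none of these genes was tested. Ppard, the PPAR that was tested, rose 2.01-fold (176, 161 and 176 in mock against 325, 295 and 423, limma adjusted p = 7.11e-05). The coactivator gene Ncoa3 rose 2.10-fold (limma adjusted p = 2.13e-07). Rxrb, a partner of the PPARs, rose from 1041 ± 24.1 to 1950.3 ± 553, where Nup98::Nsd1 replicate 2 was the highest at 2586 (log2 fold change 0.87, limma adjusted p = 0.000186). Ncoa1, another coactivator, rose 1.51-fold. The single fall was that of Pprc1, a coactivator of the PGC-1 family named here after its value was seen (log2 fold change -0.49, limma adjusted p = 1.77e-05).

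**Figure D4:**
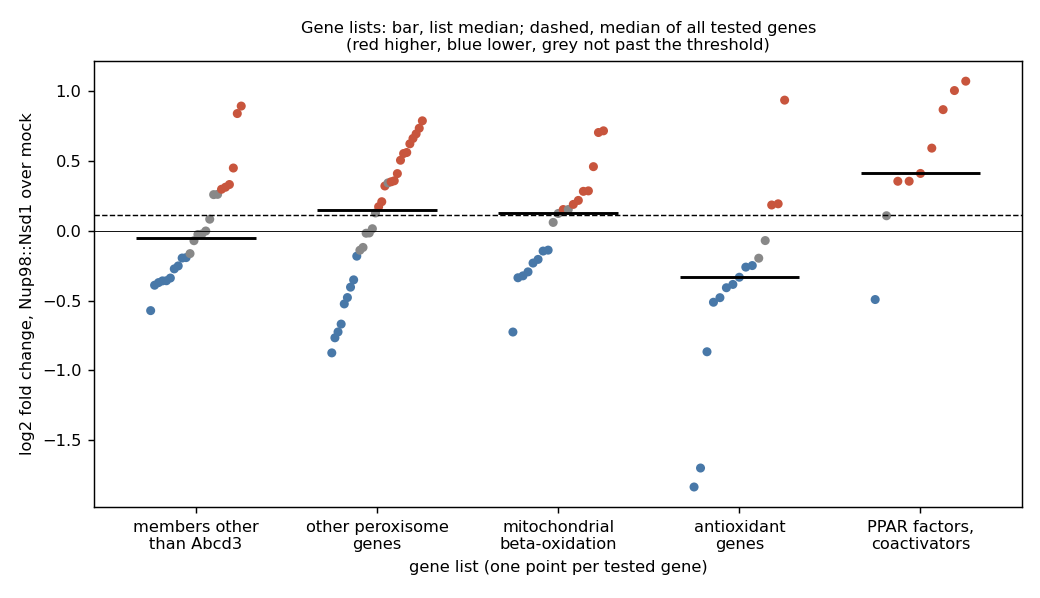
Log2 fold change of each tested gene, at its brightest probe set, in 5 gene lists (red higher, blue lower, grey not past the threshold); bars are list medians and the dashed line is the median of all 9641 tested genes, 0.12. List medians run from -0.33 for the antioxidant genes to 0.41 for the PPAR factors and coactivators, a list that also holds Nfe2l2.

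The genes beside Abcd3 on chromosome 3 went both ways. Each that had a probe set was read at the brightest tested one, or at the brightest where none was tested. Of the 10 protein-coding genes on either side, 9 were tested: 3 rose and 4 fell, between -1.70 and 1.003 on the log2 scale (against 42.9% and 29.5% of all tested genes that rose and fell). Snx7, a sorting nexin gene and the outermost of these neighbours on the lower-coordinate side at 3890.0 kb, was Present on no array and untested, but differed the most: it read 7.19, 2.44 and 6.89 on the mock arrays and 194, 208 and 200.3 on the Nup98::Nsd1 arrays. It is named after its values were seen. Those nearest, F3 at 23.9 kb and Arhgap29 at 138 kb, were Absent on all 6 arrays. On the lower-coordinate side the nearest tested genes were Cnn3, at -0.03 (limma adjusted p = 0.949), and Alg14, which fell by 0.28 on the log2 scale (limma adjusted p = 0.028), a call lost in 3 of the 6 fits without 1 array. On the other side, Abca4, a transporter of retinoids, rose 1.58-fold at 229 kb (619 ± 44.2 to 976 ± 33.1, limma adjusted p = 7.53e-06), and Gclm, given above, fell at 430.2 kb. Ptbp2, a splicing regulator 1974 kb away, rose 2.00-fold (limma adjusted p = 4.07e-08).

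**Figure D5:**
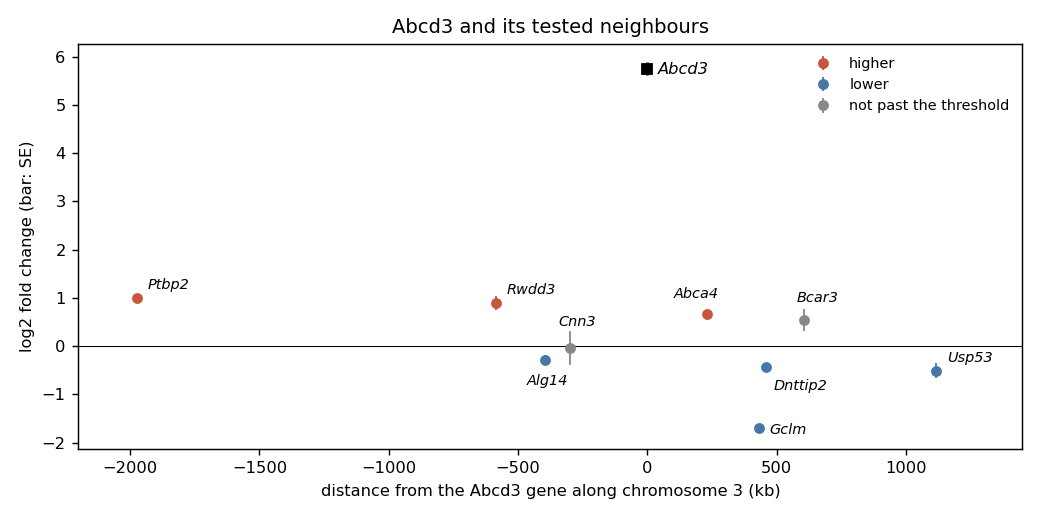
Log2 fold change with its SE for Abcd3 and its 9 tested neighbours, by distance from the Abcd3 gene in kb along chromosome 3. Abcd3 stands at 5.75, and the neighbours lie between -1.70 and 1.003.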

How the data were processed

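Per the labels, the authors processed each array with MAS5, and per the file headers the deposited values are a scaled intensity on a linear scale, a detection call and a detection p-value for each probe set. No source used here gives the MAS5 version or its scaling target, and trimmed means of the signal came to 500.003 for all 6 arrays. Intensities in the deposited series matrix differed from these by a relative 5e-06 at most.

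Signals under 1 were set to 1 and taken to log2. Of 45037 probe sets that were no controls, 34945 had 1 symbol in the platform annotation. The comparison used limma 3.58.1 in R 4.3.3 (intensity trend, group as the only term, Benjamini-Hochberg adjustment over 20494 tested probe sets, threshold 0.05), which was tested on simulated data with 2 assumed spreads. There the fit missed most of the smallest changes, and under 1 of the spreads false calls exceeded the threshold. Far fewer probe sets were changed in the simulation than the 69.9% called in the data, so these rates do not carry over. A gene that did not pass may still have changed, and calls just past the threshold are less certain. A gene's brightest tested probe set stood for it. The genes and lists were chosen with earlier results of these data known. Values were printed by a rule: Abcd3 and its paralogs, in each role up to 4 genes past the threshold with the largest change and 1 that did not pass, up to 4 in each further list, and of the neighbours the nearest 2 tested on each side and the 2 with the largest change; the remaining genes are given more briefly. Same-numbered arrays of the 2 groups deviated together at r = -0.017, -0.011 and 0.021 over tested probe sets, so no array-wide pairing by replicate number was seen. The labels do not say whether the samples were paired, and so few arrays cannot settle it. Alternatives were other pseudocounts, filters, scalings, no intensity trend, the matrix of the series, averaging probe sets by gene, the replicate block, and each array left out.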

Additional observations from a re-analysis of the deposited data

How the results depend on the processing

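Among the named probe sets, no alternative turned a call into a call of the opposite direction. Hybridization control scaling moved most: 4371 probe sets of the whole array rose and 10076 fell, 4 peroxisomal probe sets rose and 31 fell, 2 of the genes rose and 16 fell, and the median log2 fold change of the peroxisomal probe sets went from -0.06 to -0.46, against -0.22 with quantile normalization, -0.26 with 75th percentile centring and -0.23 with median centring. In that scaling 5 other peroxisomal genes rose and 16 fell, and 2 mitochondrial genes rose and 13 fell. There 4 genes of the PPAR list rose and 2 fell, and 1 antioxidant gene rose, as with both centrings. With 75th percentile centring 9 other peroxisomal genes rose and 14 fell and 3 mitochondrial genes rose; median centring gave 14 falls and 3 rises in the same lists, and quantile normalization 5 mitochondrial falls. Rises changed sign for Acox3 (-0.030 with quantile normalization, -0.085 with hybridization control scaling), Pex16 (-0.10), Ech1 (-0.066) and, from an uncalled 0.08 to a called -0.31, Acaa1a, the last 3 with hybridization control scaling. The cause was not tested. For Abcd3 the log2 fold change was 5.04 and 3.96 with pseudocounts of 16 and 64, and 5.57, 5.55, 5.58 and 5.35 with quantile, 75th percentile, median and hybridization control scaling; it was not tested among probe sets Present on all 6 arrays. Higher calls made up 60.5% of all calls on the array, and 49.7%, 44.8%, 47.1% and 30.3% under those 4 scalings. Leaving out each array in turn gave 5 to 6 rises and 7 to 10 falls among the genes. With the replicate block, 5 genes rose and 11 fell: Acox3 was no longer called (adjusted p = 0.0572) and Cat was (adjusted p = 0.00622). Abcd2, Ehhadh and Phyh lay too near background to be tested.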

Other observations

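Of the 4 Abcd2 probe sets, all Absent on all 6 arrays and outside every test, 1 read 1.4 to 2.9 on the mock arrays and 17.9 to 26.9 on the Nup98::Nsd1 arrays, while the other 3 overlapped between the groups; it was picked after its values were seen.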
